A study of Homo sapiens with 9 samples.

Results

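The genes described are 36 transcriptional targets of the tumour suppressor p53 other than the core apoptosis genes, which were listed apart. A few of them, such as AEN and PERP, also take part in p53-induced apoptosis. They were chosen by symbol as known p53 targets of cell cycle arrest, feedback on p53, DNA repair, metabolism and autophagy, and membrane signalling. All 36 were listed among the 58920 genes of the count tables, and 35 of them had at least 10 counts over all libraries and were tested with 19102 genes in all. The remaining gene, TNFRSF10C, a decoy receptor of the death ligand TRAIL, had 2 counts in total, both in LIM1215-R2, and was not tested.

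p53 is a transcription factor that binds DNA as a tetramer and is kept low in unstressed cells by the ubiquitin ligase MDM2, which is itself a p53 target. DNA damage, oncogene signalling and nutrient stress stabilise p53, and its targets then halt the cell cycle, repair DNA, adjust metabolism or kill the cell. CDKN1A, which encodes the cyclin-dependent kinase inhibitor p21, is the best known of the arrest genes. Many of these genes are also under the control of other factors, such as ATF4 in the integrated stress response or those downstream of MAPK signalling, so their transcripts are no direct readout of p53 protein.

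RNA came from LIM1215, a human colorectal cancer cell line that depends on the epidermal growth factor receptor (EGFR) and is sensitive to cetuximab, an antibody against EGFR. LIM1215-parental is the sensitive line, and LIM1215-R1 and LIM1215-R2 are 2 resistant populations, neither of them a single-cell clone, obtained from it independently by months of culture in rising cetuximab. All 3 lines were sequenced in untreated culture, with 3 libraries per line and 13737416 to 18725014 counts per library. The replicates were described by the study as technical, so p-values measure the spread between libraries of 1 population and not between independent selections. In a mixed population, a larger share of expressing cells and more RNA per cell cannot be told apart.

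The lines kept markers of colon epithelium, with 9 of the 10 genes of a marker list above the count minimum and KRT20 at 0 counts. Their summed level was 13200 to 13500 CPM (counts scaled to a common library total) in parental libraries, 16250 to 16450 in LIM1215-R1 and 14840 to 15320 in LIM1215-R2. KRT8 and KRT18 made up most of this sum and were higher in both resistant lines. KRT19 (log2 fold change 0.58 in LIM1215-R1 and 0.42 in LIM1215-R2) and VIL1 (0.40 and 0.26) were also higher in both. CDH17 (-0.53 and -0.58), CDX2 (-0.44 and -0.55), EPCAM (-0.26 and -0.32) and LGALS4 (-0.23 and -0.37) were lower in both. CDH1 changed least (-0.14 and -0.12). Markers of other cell types were low. The 6 fibroblast genes summed to 2.48 to 3.22, 1.61 to 1.70 and 1.19 to 1.61 CPM in the 3 lines, in that order, and the 3 endothelial genes to at most 0.728 CPM. The 5 leukocyte genes summed to 7.51 to 10.8, 11.7 to 14.4 and 8.70 to 10.4 CPM, with PTPRC and CD3E at 0 counts. Nearly all of this sum was CD68, with means of 8.3, 13.4 and 9.8 CPM, which was 0.70 higher in LIM1215-R1 on the log2 scale. The part of these markers in the results was not tested.

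The p53 response element is a pair of half-sites of 10 bases, each built around a core with fixed C and G. Both strands of the 3000 bases on each side of the RefSeq transcription starts were searched on hg38 for 2 adjoining half-sites with no spacer and at most 2 mismatches, none of them at the fixed C or G of a half-site. Of the 29 genes with a RefSeq promoter entry, 12 held such a match (41.4%), against 683 of 12577 tested genes (5.43%). An exact match was found for 2 of the 29 (6.9%) and for 19 of the 12577 genes (0.151%). Because the genes were chosen as known p53 targets, this share describes the list and is no separate finding. RRM2B, PHLDA3, GADD45A, TP53INP1, TNFRSF10D, TNFRSF10C and ASCC3 are not among the 29.

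The following matches are shown because their genes carry the main patterns of expression. The first 3 genes had the largest increases (CDKN1A, PLK2 and GDF15). The next 3 (MDM2, ZMAT3 and DDB2) passed as higher in LIM1215-R1 and did not pass in LIM1215-R2. The last 2 (CCNG1 and EDA2R) were lower in both resistant lines. Each is written from 5′ to 3′ on the strand of its gene, with capitals for bases that match the consensus and lower case for mismatches.
CDKN1A: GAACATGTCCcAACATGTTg
PLK2: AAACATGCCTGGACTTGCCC
GDF15: cAtCTTGCCCAGACTTGTCT
MDM2: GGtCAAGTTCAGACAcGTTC
ZMAT3: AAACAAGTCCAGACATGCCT
DDB2: AAGCTgGTTTGAACAAGCCC
CCNG1: GcACAAGCCCAGGCTAGTCC
EDA2R: GAACATGCCTGGACgTGTCC

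On hg38, the CDKN1A match lies at chr6:36676449-36676468 on the plus strand, 2256 bases upstream of a start of the gene. Distances are taken from the middle of each match. The PLK2 match lies at chr5:58462274-58462293 on the minus strand, 2198 bases upstream, and the GDF15 match at chr19:18385308-18385327 on the plus strand, 841 bases upstream. For MDM2 the match is at chr12:68808923-68808942 on the plus strand, 85 bases upstream of an internal start of the gene. The ZMAT3 match is at chr3:179070188-179070207 on the minus strand, 856 bases upstream of an internal start. The DDB2 match at chr11:47214969-47214988 on the plus strand spans a start of the gene, with its middle 4 bases downstream. CCNG1 held its best match at chr5:163437926-163437945 on the plus strand, 340 bases downstream, and EDA2R at chrX:66638713-66638732 on the minus strand, 355 bases downstream. PLK2 and ZMAT3 were the genes with exact matches. A match is a description of the letters, and binding was not measured. Matches were present both in genes that were higher and in genes that were lower in the resistant lines.

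Against parental cells, most of the p53 targets were higher in LIM1215-R1. A gene is said to have passed at an adjusted p of at most 0.01 in the quasi-likelihood test of edgeR, adjusted by Benjamini-Hochberg over every gene tested. By this rule 25 of the 35 genes were higher, 3 were lower and 7 did not pass, while 14.0% of all genes tested were higher and 13.4% were lower. Among the 9497 genes as well counted as these targets (135.3 to 12570 mean counts per library, EDA2R left aside), 20.0% were higher and 20.2% lower. The median log2 fold change of the 35 genes was 0.52 beside -0.01 over all genes tested. Most changes were small, since the study's threshold for a differentially expressed gene (DEG), which also asks for a log2 fold change of 1.5 or more in size, was met by 3 higher genes, PLK2, CDKN1A and GDF15, and 1 lower gene, EDA2R. GDF15, at 1.59, lay just above this threshold, and its value was 1.39 when trends on GC content and length were removed. DEGs made up 3.24% of all genes on the higher side and 1.91% on the lower side.

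In LIM1215-R2 the same comparison gave fewer and smaller changes. There, 12 of the 35 genes were higher, 5 were lower and 18 did not pass, against 12.3% higher and 11.6% lower over all genes tested and 18.0% and 16.6% among genes as well counted. The median log2 fold change was 0.07, beside 0.00 for all genes. PLK2 was the higher DEG and EDA2R the lower one, with 2.63% and 2.19% of all genes called as higher and lower DEGs. Both comparisons use the same parental libraries, so they are not independent of each other.

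**Figure D1:**
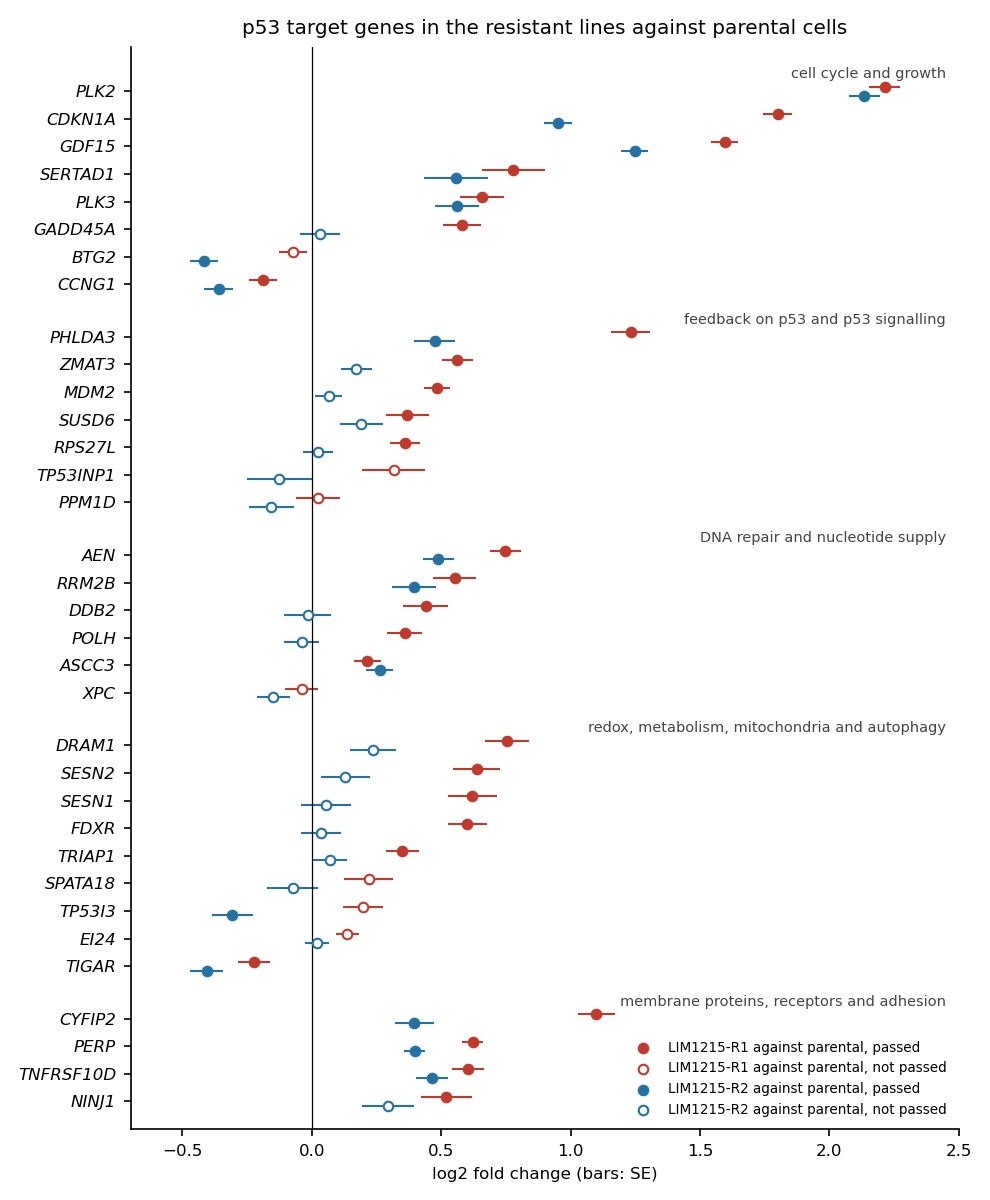
Log2 fold change of 34 p53 target genes in LIM1215-R1 (red) and LIM1215-R2 (blue) against parental cells, grouped by role, with bars for the standard error of the fit; filled points passed at an adjusted p of at most 0.01. PLK2 sits near 2.2 in both lines, whereas CDKN1A and PHLDA3 lie well to the right in LIM1215-R1 of where they lie in LIM1215-R2. EDA2R, with few counts, is left out.

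The resistant lines were compared with each other directly. When LIM1215-R2 was set against LIM1215-R1, no target gene passed as higher by edgeR or DESeq2, and none was higher at an unadjusted p under 0.05 by edgeR (0 genes in each case). In contrast, 19 of the 35 genes were lower in LIM1215-R2 and 16 did not pass, where 3.77% of all genes were lower and 3.39% higher (5.00% and 5.75% of genes as well counted). The 19 log2 fold changes ran from -0.85 for CDKN1A to -0.22 for PERP, and the median over the 35 genes was -0.34. None of the 35 was a DEG in this comparison, in which 0.550% of all genes were lower DEGs and 0.215% higher DEGs.

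Taking the 3 tests gene by gene, 6 genes were higher in both resistant lines and lower in LIM1215-R2 than in LIM1215-R1 (CDKN1A, PHLDA3, AEN, GDF15, PERP and CYFIP2). Another 6 were higher in both lines with no difference that passed between them (RRM2B, PLK2, PLK3, SERTAD1, TNFRSF10D and ASCC3). The largest group, 11 genes, was higher in LIM1215-R1, did not pass in LIM1215-R2 and was lower in LIM1215-R2 than in LIM1215-R1. It held MDM2, ZMAT3, FDXR, DDB2, SESN1, SESN2, GADD45A, TRIAP1, POLH, DRAM1 and RPS27L. NINJ1 and SUSD6 were higher in LIM1215-R1 alone by the tests against parental cells, but the 2 resistant lines did not differ at the threshold. CCNG1, TIGAR and EDA2R were lower in both lines, and BTG2 and TP53I3 passed as lower in LIM1215-R2 against each of the other lines. XPC, PPM1D, EI24, SPATA18 and TP53INP1 passed in none of the 3 comparisons.

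Among the 8 genes of cell cycle arrest and growth control, 6 were higher and 1 lower in LIM1215-R1, against 5 higher and 2 lower in LIM1215-R2. Beside this and the following roles, 14.0% of all genes tested were higher and 13.4% lower in LIM1215-R1, and 12.3% and 11.6% in LIM1215-R2. In roles of this size, 1 gene lies near these shares. Between the resistant lines 3.39% of all genes were higher and 3.77% lower. CDKN1A (chromosome 6, 36676463 to 36687332) had 108, 119 and 107 CPM in the parental libraries, 373, 420 and 368 in LIM1215-R1, and 210, 220 and 216 in LIM1215-R2. The 3 lines did not overlap, with LIM1215-R1 highest and LIM1215-R2 between the others. The means were 111 ± 6.78, 387 ± 29.0 and 215 ± 5.31 CPM (SD, n = 3 libraries each), a 3.48-fold higher level in LIM1215-R1 and a 1.93-fold higher level in LIM1215-R2 than in parental cells. On the log2 scale the difference of LIM1215-R2 from LIM1215-R1 was -0.85 ± 0.0521 (SE), with an adjusted p of 3.93e-12 by edgeR.

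PLK2 encodes a polo-like kinase of the centrosome cycle and stress response. It rose from 28.5, 29.8 and 28.2 CPM in parental libraries to 137, 134 and 130 in LIM1215-R1 and to 125, 134 and 120 in LIM1215-R2. Unlike CDKN1A, the 2 resistant lines overlapped. The log2 fold changes were 2.21 ± 0.0601 and 2.14 ± 0.0602 (SE), with edgeR adjusted p-values of 6.93e-21 and 1.63e-20, and the difference between the resistant lines was -0.08 ± 0.0527 (adjusted p = 0.396). Its relative PLK3 went from 15.7, 19.2 and 17.3 CPM to 26.9, 27.1 and 28.2 in LIM1215-R1 and 26.3, 24.4 and 26.2 in LIM1215-R2, so that each resistant library lay above each parental one. The PLK3 log2 fold changes were 0.66 and 0.56.

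GDF15, a secreted cytokine of the TGF-beta superfamily that is induced by many stresses, had 158, 180 and 176 CPM in parental libraries. It reached 488, 540 and 526 CPM in LIM1215-R1 and 410, 386 and 427 in LIM1215-R2. The groups did not overlap, and the order of the lines was that of CDKN1A. The log2 fold changes were 1.59 ± 0.0522 and 1.25 ± 0.0521 (SE) against parental cells (edgeR adjusted p = 3.44e-19 and 6.44e-17), and -0.35 ± 0.0502 between the resistant lines (1.64e-05).

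SERTAD1, a regulator of CDK4 and E2F activity, was measured at 5.90, 6.07 and 5.99 CPM in parental libraries, 9.94, 9.73 and 11.1 in LIM1215-R1 and 8.03, 8.92 and 9.54 in LIM1215-R2. Resistant libraries were all above parental ones, by a log2 fold change of 0.78 and 0.56. GADD45A, which slows the G2/M transition and takes part in DNA repair, behaved otherwise. Its level was 24.6, 22.1 and 25.1 CPM in parental libraries and 24.5, 24.1 and 24.9 in LIM1215-R2, which overlap, but 34.8, 35.6 and 37.3 in LIM1215-R1. The difference between the resistant lines was -0.55 ± 0.0744 (SE, edgeR adjusted p = 6.27e-06).

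The lower genes of this role were CCNG1 and BTG2. CCNG1, the p53-induced cyclin G1, fell by 0.19 on the log2 scale in LIM1215-R1 and by 0.36 in LIM1215-R2. BTG2, an anti-proliferative cofactor of mRNA deadenylation, fell by 0.42 in LIM1215-R2, from 96.2 ± 4.51 to 72.0 ± 0.67 CPM, and its LIM1215-R1 value of 91.5 ± 2.99 CPM did not differ at the threshold from parental (edgeR adjusted p = 0.338).

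**Figure D2:**
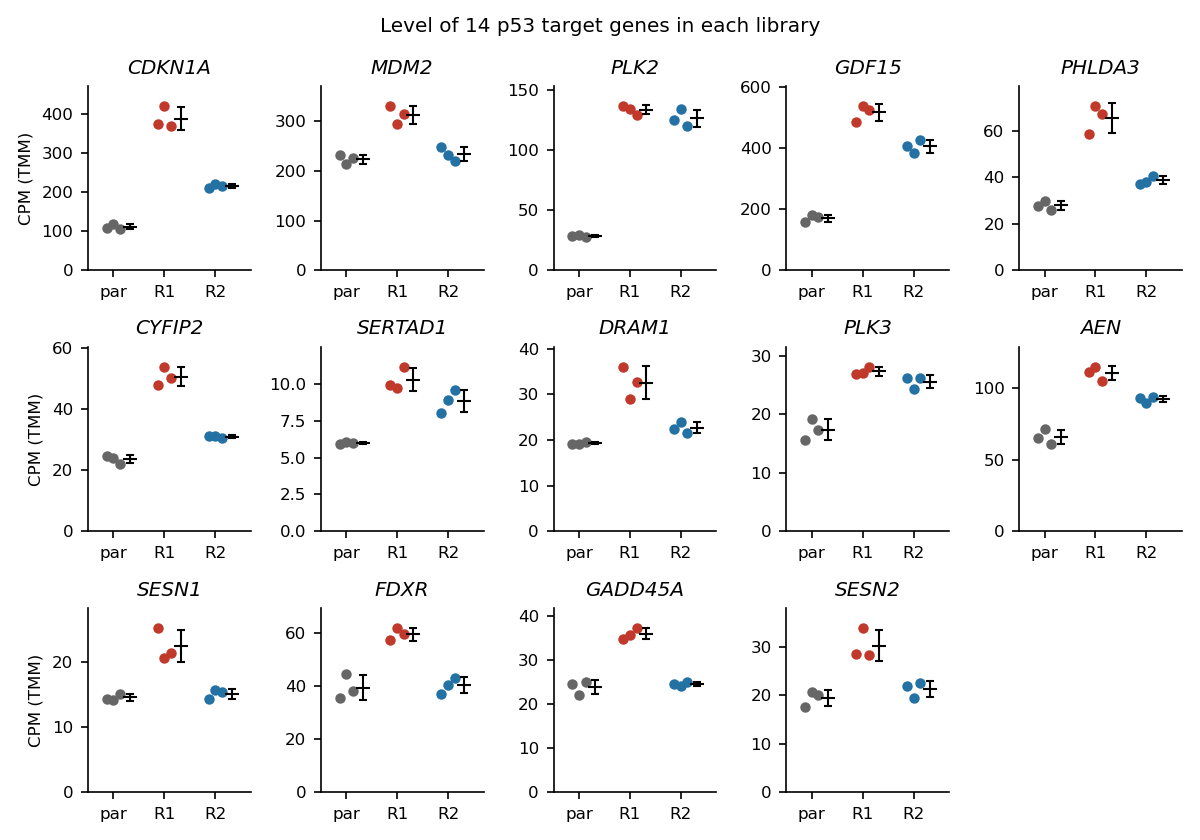
Level in each library, in CPM after TMM scaling, of 14 of the 15 p53 targets with every library given, in parental cells (par, grey), LIM1215-R1 (red) and LIM1215-R2 (blue); bars show the mean and SD of 3 libraries and each axis starts at 0. LIM1215-R1 is highest throughout by its mean, LIM1215-R2 overlaps parental libraries for MDM2, SESN1, FDXR, GADD45A and SESN2, and reaches the LIM1215-R1 level for PLK2.

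Of the 7 genes that act on p53 itself or pass on its signal, 5 were higher in LIM1215-R1 and 2 did not pass, whereas 1 was higher in LIM1215-R2 and 6 did not pass. MDM2 (chromosome 12, 68808172 to 68850686) had 232, 214 and 226 CPM in parental libraries, 332, 294 and 314 in LIM1215-R1, and 249, 233 and 221 in LIM1215-R2. Its parental and LIM1215-R2 libraries overlapped and LIM1215-R1 lay above both. The log2 fold change was 0.48 ± 0.0513 in LIM1215-R1 and 0.07 ± 0.0516 in LIM1215-R2 (SE, edgeR adjusted p = 1.46e-08 and 0.384). The resistant lines differed by -0.42 ± 0.0513 (1.33e-06).

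PHLDA3, a pleckstrin-homology protein that competes with AKT for membrane lipids, was the gene of this role that passed as higher in both lines. It had 27.8, 30.0 and 25.9 CPM in parental libraries, 58.3, 70.6 and 67.1 in LIM1215-R1 and 37.2, 38.1 and 40.7 in LIM1215-R2, without overlap. The log2 fold changes were 1.23 and 0.47 against parental cells and -0.76 between the resistant lines. ZMAT3, an RNA-binding regulator of splicing, RPS27L, a ribosomal protein paralog that acts on MDM2, and SUSD6, a membrane protein, were 0.56, 0.36 and 0.37 higher on the log2 scale in LIM1215-R1. In LIM1215-R2 these values were 0.17, 0.02 and 0.19 and did not pass. Even so, each LIM1215-R2 library lay above each parental one for ZMAT3 and SUSD6, while those of RPS27L overlapped. PPM1D, the phosphatase that switches p53 signalling off, was at 27.5 ± 2.68, 28.1 ± 1.18 and 24.7 ± 2.43 CPM in the 3 lines, with no comparison past the threshold. The autophagy and stress protein TP53INP1 was the lowest expressed of this role, and its difference between the resistant lines, -0.44, missed the threshold (edgeR adjusted p = 0.0165).

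DNA repair and nucleotide supply counted 6 genes, of which 5 were higher in LIM1215-R1, and LIM1215-R2 had 3 that were higher. The largest change was that of AEN, a p53-induced exonuclease, with 65.2, 71.3 and 61.1 CPM in parental libraries, 111, 115 and 105 in LIM1215-R1 and 92.9, 89.8 and 93.9 in LIM1215-R2. Its lines did not overlap, with log2 fold changes of 0.75 and 0.49 against parental cells. RRM2B, the p53-induced subunit of ribonucleotide reductase, was higher by 0.55 and 0.40, and ASCC3, a helicase of alkylation repair, by 0.22 and 0.26. ASCC3 was the gene with the highest value in LIM1215-R2 against LIM1215-R1, at 0.05, which did not pass.

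The damage-recognition gene DDB2 and the translesion polymerase POLH were higher in LIM1215-R1 by 0.44 and 0.36. Their LIM1215-R2 means, 20.4 ± 1.20 and 43.3 ± 3.34 CPM, lay beside parental means of 20.5 ± 2.48 and 44.5 ± 0.188 CPM. XPC, which recognises helix distortions in nucleotide excision repair, was at 54.8 ± 3.65 CPM in parental cells, 53.4 ± 1.47 in LIM1215-R1 and 49.5 ± 2.48 in LIM1215-R2 and passed in no comparison.

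The next role comprised 9 genes of redox control, metabolism, mitochondria and autophagy. In LIM1215-R1, 5 were higher and 1 lower than parental, whereas in LIM1215-R2 2 were lower and 7 did not pass. Directly compared, 6 of the 9 were lower in LIM1215-R2 than in LIM1215-R1.

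DRAM1, a lysosomal membrane protein of autophagy, had 19.1, 19.2 and 19.5 CPM in parental libraries, 36.01, 28.9 and 32.7 in LIM1215-R1 and 22.4, 24.0 and 21.6 in LIM1215-R2. Each LIM1215-R2 library was above each parental one, although the log2 fold change of 0.24 did not pass (edgeR adjusted p = 0.0416). The sestrins are stress proteins that restrain mTORC1. SESN1 had 14.3, 14.2 and 15.1 CPM in parental libraries, 25.2, 20.6 and 21.3 in LIM1215-R1 and 14.3, 15.7 and 15.4 in LIM1215-R2, and SESN2 had 17.5, 20.7 and 20.1, then 28.6, 33.9 and 28.2, then 21.9, 19.4 and 22.5 CPM. For both sestrins LIM1215-R1 stood above the other lines, which overlapped. Log2 fold changes in LIM1215-R1 were 0.62 for SESN1 and 0.64 for SESN2.

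FDXR, the mitochondrial ferredoxin reductase, had 35.5, 44.4 and 38.1 CPM in parental libraries, 57.0, 61.8 and 59.3 in LIM1215-R1 and 37.1, 40.4 and 43.1 in LIM1215-R2. LIM1215-R1 alone was separate, at a log2 fold change of 0.60 against parental, and the resistant lines differed by -0.56 ± 0.0750 (SE, edgeR adjusted p = 4.77e-06). TRIAP1, a mitochondrial lipid-transfer partner, was 0.35 higher in LIM1215-R1. TIGAR, which lowers fructose-2,6-bisphosphate and so glycolytic flux, went the other way, from 85.5 ± 3.33 CPM to 73.3 ± 4.60 in LIM1215-R1 and 64.5 ± 5.26 in LIM1215-R2. TP53I3, a quinone oxidoreductase, was 0.31 lower on the log2 scale in LIM1215-R2 than in parental cells and 0.51 lower than in LIM1215-R1. EI24 and SPATA18, of autophagy and mitochondrial quality control, did not pass in any comparison.

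The membrane group had 5 tested genes, of which 4 were higher in LIM1215-R1 and 3 in LIM1215-R2, with EDA2R lower in both. CYFIP2, a subunit of the WAVE complex that regulates actin, had 24.7, 24.0 and 22.0 CPM in parental libraries, 47.7, 53.7 and 49.9 in LIM1215-R1 and 31.2, 31.1 and 30.6 in LIM1215-R2. The lines did not overlap, with log2 fold changes of 1.10 and 0.40 against parental and -0.70 between the resistant lines. PERP, a desmosomal protein of epithelia, was the most abundant of the 35 genes by CPM, with 602 ± 19.1, 927 ± 41.4 and 793 ± 29.8 CPM in the 3 lines. TNFRSF10D, another TRAIL decoy receptor, was 0.61 and 0.47 higher on the log2 scale, and the cell-surface protein NINJ1, which takes part in membrane rupture, was 0.52 higher in LIM1215-R1.

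EDA2R, a receptor of the tumour necrosis factor family that binds ectodysplasin A2, was the target with the largest fall, at very low counts. It had 8, 10 and 16 counts in parental libraries, 3, 2 and 0 in LIM1215-R1, and 0 in each LIM1215-R2 library. A count of 0 was taken to allow at most 3 counts over the line. The EDA2R level in LIM1215-R2 was then at least 11.1-fold lower than in parental cells, with the 34 parental counts taken as exact. This limit covers the counting error of the 0 counts only. The call in LIM1215-R1 (edgeR adjusted p = 0.00422) rests on single libraries, since it was lost without parental replicate 3 (0.0283), without LIM1215-R1 replicate 2 (0.0104) and without LIM1215-R1 replicate 3 (0.0255).

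The other lower calls in LIM1215-R1 were as fragile. CCNG1 and TIGAR lost theirs without parental replicate 1, parental replicate 3, LIM1215-R1 replicate 2 or LIM1215-R1 replicate 3, CCNG1 also without LIM1215-R2 replicate 1 or 2, which enter through the shared estimate of the spread. The number of lower genes in LIM1215-R1 thus went from 3 down to 0, while the number of higher genes stayed at 24 to 26.

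Levels can be compared between genes only per transcript length, here as CPM per kilobase of the canonical GENCODE transcript. On this scale PERP (143.5 CPM per kb) and GDF15 (143) led the 35 genes in parental cells, followed by EI24 (102), CCNG1 (57.7) and CDKN1A (52.6). In LIM1215-R1 the order was GDF15 (432), PERP (221), CDKN1A (183), EI24 (112) and CCNG1 (50.6), and in LIM1215-R2 it was GDF15 (339), PERP (189), EI24 (103), CDKN1A (102) and PLK2 (45.4). EDA2R was the lowest in each line and TP53INP1 the next lowest. GDF15 was thus level with PERP in parental cells and above it in both resistant lines. The annotation behind the counts is not given in the sources used here, so these lengths may differ from those counted.

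The genes that regulate p53 or belong to its family were counted beside the targets. For this and the following lists, the shares over all genes tested were 14.0% higher and 13.4% lower in LIM1215-R1, 12.3% and 11.6% in LIM1215-R2, and 3.39% and 3.77% between the resistant lines. Among 17 of them, 1 was higher and 5 lower in LIM1215-R1, against 3 higher and 3 lower in LIM1215-R2. Between the resistant lines 2 of the 17 were higher in LIM1215-R2, the damage kinase genes ATM (0.48) and ATR (0.32), and 0 were lower. ATM passed in neither line against parental cells. MDM4, the partner of MDM2 that holds p53 inactive, fell by 0.45 in LIM1215-R1 and by 0.22 in LIM1215-R2. EP300, an acetyltransferase coactivator, fell by 0.34 in LIM1215-R1, and KAT5, another acetyltransferase, fell by 0.30 and 0.40 in the 2 lines. The kinase gene CHEK2 also fell in both lines, by 0.30 and 0.33. The p53 relative TP63 was 0.81 higher in LIM1215-R1, from a mean of 1.56 CPM in parental cells to 2.76. It had 308 counts over all libraries, and the resistant lines did not differ in it at the threshold (edgeR adjusted p = 0.211). TP73, another relative, and ATR were 0.33 and 0.28 higher in LIM1215-R2. These are transcripts, and the counts do not measure p53 protein.

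The apoptosis branch of the p53 programme was counted apart. Of its 12 genes, 6 were higher and 6 did not pass in LIM1215-R1, against 5 higher and 2 lower in LIM1215-R2. Between the resistant lines 4 of the 12 were lower in LIM1215-R2. The death receptor gene FAS, which was 1.05 and 0.51 higher in the 2 lines, and the pore-forming BAX, which was 0.45 higher in LIM1215-R1 and at 0.08 in LIM1215-R2, were both lower in LIM1215-R2 when the resistant lines were compared, by 0.54 and 0.37 on the log2 scale. The receptor genes TNFRSF10B (0.54 and 0.30) and TNFRSF10A (0.46 and 0.48) were also higher in both lines. Between the resistant lines TNFRSF10B was 0.23 lower in LIM1215-R2, and TNFRSF10A, at 0.02, did not pass. BBC3, which encodes the BH3-only protein PUMA, fell by 0.49 in LIM1215-R2 against parental cells and by 0.62 against LIM1215-R1. The other lower gene in LIM1215-R2 was APAF1 of the apoptosome, at -0.29, which is named after its values were seen.

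A further list held 18 cell cycle genes that the DREAM complex represses once p21 is induced. In LIM1215-R1, 8 of them were higher, 2 lower and 8 did not pass, with a median log2 fold change of 0.17. In LIM1215-R2, 5 were higher and 2 lower, with a median of 0.04. RRM2 was 0.44 higher in each line, and AURKB was 0.38 higher in LIM1215-R1. The 2 lower genes were CDC25C, which fell by 0.49 and 0.45, and MCM5, which fell by 0.38 and 0.26. Between the resistant lines 3 of the 18 were lower in LIM1215-R2 and 0 were higher.

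Lists of 2 other pathways, MAPK output and the ATF4 response, were counted in the same way. Of 15 genes of MAPK output, 13 were higher and 1 lower in LIM1215-R1, against 12 higher in LIM1215-R2, with medians of 0.80 and 0.75. PHLDA1 (2.67 and 3.42), DUSP5 (2.27 and 1.91) and DUSP6 (1.77 and 1.55) had the largest changes. Between the resistant lines 3 of the 15 were higher and 4 lower, with a median of 0.03, whereas the p53 targets had 0 higher and 19 lower. Of 12 ATF4 targets, 7 were higher and 2 lower in LIM1215-R1, against 4 higher and 2 lower in LIM1215-R2. Named by log2 fold change in the 2 lines, these were VLDLR (4.19 and 3.53), SLC7A11 (1.36 and 1.39), ATF3 (0.90 and 0.42) and PHGDH (-0.44 and -0.62). The VLDLR values rest on few counts, 189 over all libraries. Its level was 0.354, 0 and 0 CPM in parental libraries, with means of 2.32 in LIM1215-R1 and 1.48 in LIM1215-R2. Between the resistant lines 4 of the 12 were lower in LIM1215-R2, ATF3 by 0.48 among them. The part of either pathway in the levels of the p53 targets was not tested.

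**Figure D3:**
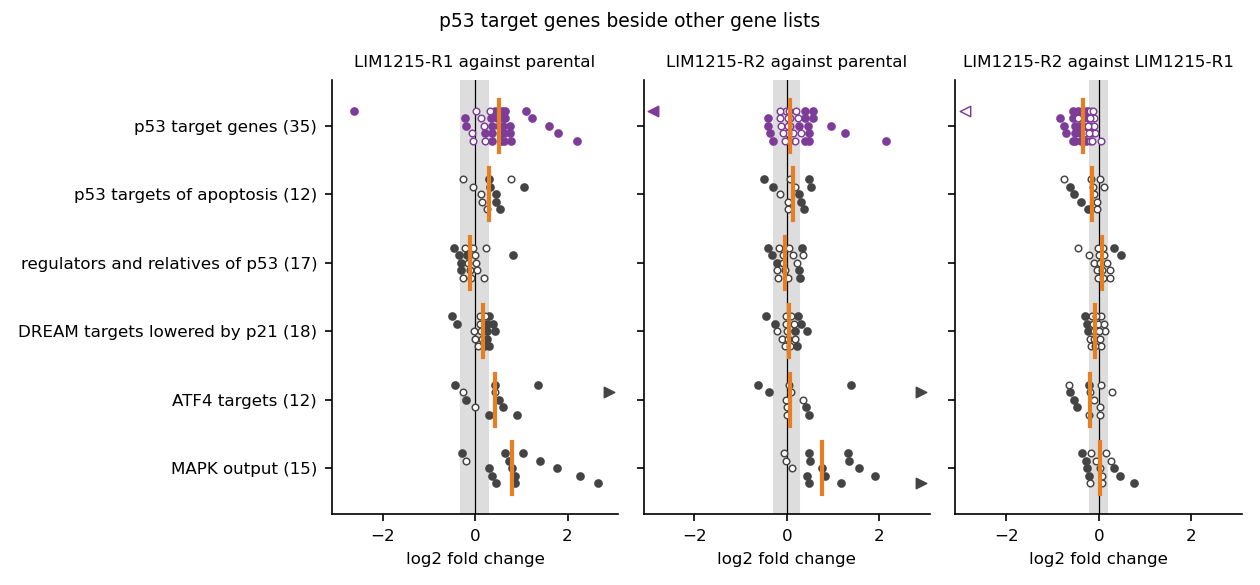
Log2 fold change of each gene (points, filled where the adjusted p was at most 0.01) in the p53 target list and 5 other lists, with the number tested in brackets, the list median in orange, the middle 50% of all genes tested as a grey band and the median of all genes as a black line; triangles mark genes beyond the plotted range, drawn at its edge. The p53 targets are centred at 0.52, 0.07 and -0.34 in the 3 panels, and the MAPK output list at 0.80, 0.75 and 0.03.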

How the data were processed

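RNA of 3 lines with 3 libraries each was sequenced by the authors as stranded paired-end poly(A) libraries, aligned to hg38 with STAR and counted per gene with HTSeq (0.9.1). The authors deposited raw counts per gene symbol for each library. The annotation is not given in the sources used here.

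The 36 genes and the other lists were chosen with earlier results of these data known. Counts were fitted in edgeR 4.0.16 (R 4.3.3) with the line as group over all 9 libraries, TMM normalisation, genes with at least 10 counts in total and the quasi-likelihood test, adjusted by Benjamini-Hochberg over 19102 genes. A gene passed at an adjusted p of 0.01 or less, and DEGs also had a log2 fold change of 1.5 or more in size. SE values were derived from the fold change and its F statistic. The fit was tested on simulated data. CPM values use TMM-scaled library sizes, apart from the summed marker levels, which use total counts. The limit given for EDA2R also uses total counts and covers only the counting error of the 0 counts in LIM1215-R2. Every library is given for CDKN1A and MDM2, for the 8 genes with the largest absolute log2 fold change among those that passed in each comparison, and as counts for genes under 1 CPM in every line. Of each other list, up to 4 genes that passed with the largest changes could be named. Some further genes of the p53 regulator and apoptosis lists were named after their values were seen. One gene of these lists is not reported here.

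Promoters of RefSeq (GRCh38.p14) were located on hg38, where 17799 of 17799 entries compared were identical, and 29 of the 36 genes matched by symbol. Transcript lengths are those of GENCODE 44. Alternatives were DESeq2 1.42.0 (Wald test, and shrunken fold changes), other size factors, filters and thresholds, a test against a minimum fold change, a correction for GC content and length, a replicate block, only the libraries compared, and leaving out each library. Counting genes whose log2 fold change was 0.5 or more in size was added after seeing the data.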

Additional observations from a re-analysis of the deposited data

Results flagged for a closer look

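By the direct edgeR test of LIM1215-R2 against LIM1215-R1, 19 of the 35 genes differed in level between the 2 resistant populations. In this test 3.77% of all genes tested were lower in LIM1215-R2. All 19 were lower in LIM1215-R2, in log2 fold change. In the cell cycle and growth role these were CDKN1A (-0.85), GADD45A (-0.55), BTG2 (-0.35) and GDF15 (-0.35). In p53 feedback and signalling they were PHLDA3 (-0.76), MDM2 (-0.42), ZMAT3 (-0.39) and RPS27L (-0.34). In DNA repair they were DDB2 (-0.46), POLH (-0.40) and AEN (-0.26). In redox control, metabolism, mitochondria and autophagy they were SESN1 (-0.57), FDXR (-0.56), DRAM1 (-0.52), SESN2 (-0.51), TP53I3 (-0.51) and TRIAP1 (-0.28). In the membrane group they were CYFIP2 (-0.70) and PERP (-0.22). AEN, TRIAP1 and DDB2 lost the call when single libraries were left out. AEN did so without LIM1215-R1 replicate 2 (edgeR adjusted p = 0.0127), LIM1215-R2 replicate 1 (0.0162) or LIM1215-R2 replicate 2 (0.0297). TRIAP1 did so without LIM1215-R1 replicate 1 (0.0272), LIM1215-R2 replicate 1 (0.0293) or LIM1215-R2 replicate 2 (0.0190), and DDB2 without LIM1215-R2 replicate 2 (0.0108). With 1 population per selection, a difference between the lines and a difference between their cultures cannot be told apart.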

How the results depend on the processing

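Of 64 calls among 105 tests of the 35 genes, 56 were kept under every alternative other than the test against a minimum log2 fold change of 0.5, and none reversed. The 8 lost were CCNG1, TIGAR, EDA2R and ASCC3 in LIM1215-R1, TP53I3 in LIM1215-R2, and DDB2, AEN and TRIAP1 between the resistant lines. Over the same 19 alternatives, 24 to 28 genes were higher in LIM1215-R1 and 12 to 15 in LIM1215-R2, and 16 to 23 were lower in LIM1215-R2 than in LIM1215-R1, with 4 to 6 lower in LIM1215-R2 than parental. The number lower in LIM1215-R1 was 1 with at least 10 counts in every library (which leaves EDA2R untested), 1 by the DESeq2 Wald test and 1 with shrunken fold changes. The number of lower DEGs was 0 in LIM1215-R1 under those 3 settings, and 0 in LIM1215-R2 with the filter and with shrunken fold changes. Removing trends on GC content and length left 2 higher DEGs in LIM1215-R1 in place of 3, without GDF15. Leaving out single libraries gave 0 to 3 lower genes and 0 to 1 lower DEGs in LIM1215-R1. The test against a log2 fold change of 0.5, which asks for larger changes by its construction, left 8 higher and 0 lower in LIM1215-R1, 3 higher and 1 lower in LIM1215-R2, and 1 lower between the resistant lines. Genes that passed with a log2 fold change of 0.5 or more in size were also counted, a choice made after seeing the data. This gave 1 lower in LIM1215-R1, 5 higher and 1 lower in LIM1215-R2, and 9 lower between the resistant lines. Most of the 25 genes higher in LIM1215-R1 also met this size. Shares over all genes were not counted at either limit, so these counts do not show whether the targets stand apart there. No scaling moved the median of all genes by more than 0.05 on the log2 scale.

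With the replicate number as a block, 26 genes were higher and 3 lower in LIM1215-R1, 13 higher and 5 lower in LIM1215-R2, and 20 lower between the resistant lines. The block added the calls of EI24, NINJ1 and TP53INP1 and removed none. Deviations of same-numbered libraries correlated at -0.11 to 0.27, with 3 of 9 pairs over 0.1, so the numbers were not taken to pair the libraries. The libraries are technical replicates, and the depth limits EDA2R and TNFRSF10C.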
